A study of Mus musculus with 2 samples.

Results

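The semaphorins, ephrins, Slits and netrins, together with their receptors, were followed through brown adipogenesis. Members were chosen by a rule on the gene symbol: semaphorin classes 3 to 7, plexins, neuropilins, ephrins, Eph receptors, Slits, Robos, netrins 1 to 5, Unc5 receptors, Dcc and Neo1. This gave 70 genes of the 23361 genes with a value, 35 of them ligands and 35 receptors. RNA-Seq had been performed on brown preadipocytes (D0) and on differentiated brown adipocytes (D7), with 1 library per stage. Both came from mice labelled C57BL/6 (C57BL/6J in the methods of the study) with no named genetic change, as cells taken from interscapular brown fat of newborn animals and grown in DMEM with 20% fetal bovine serum. Per the labels, cells of both stages were kept for 4 days in a medium with 10% serum, T3 at 1 nM and insulin at 0.1 μM. By this account the D0 cells had also met insulin and T3. Induction at day 0 added 3 inducers for 2 days, dexamethasone at 2 μg/ml, indomethacin at 0.125 mM and IBMX at 0.5 mM. The D7 cells then stayed in the same medium without the inducers until day 7. The labels name primary cultures, whereas the methods of the study describe immortalization with large T and other amounts of serum, insulin and dexamethasone. Those methods first name insulin and T3 in the medium given at day 0, so the sources differ on whether D0 cells had met them. Whether cells of several pups were pooled is not given in the sources used here.

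Guidance cues were first described in growing axons and are used in many tissues for cell migration, vessel growth and contact between neighbouring cells. Semaphorins signal through plexins, and the secreted class 3 members usually need a neuropilin as co-receptor. Ephrins are held in the membrane, by a lipid anchor in the A subclass and a transmembrane segment in the B subclass, and bind Eph receptor tyrosine kinases on a touching cell. Slits are large secreted proteins that bind Robo receptors, and netrins are laminin-related proteins that bind Dcc, Neo1 and the Unc5 receptors. In adipose tissue, members of these families are known from work on sympathetic innervation, vessels and macrophages.

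The stage labels were checked against markers. All 8 adipocyte markers were at least 2-fold higher at D7, and of 8 brown adipocyte genes, 3 were at least 2-fold higher and 4 (Ucp1, Cidea, Cox8b and Elovl3) were listed at 0 at D0 only. The remaining brown gene, Prdm16, was within 2-fold, at 0.835 and 1.02 FPKM with a counting interval of the ratio that included 1 (0.965 to 1.53). Of the fibroblast and preadipocyte markers, 4 of 9 were at least 2-fold lower at D7 and 1, Cd34, was higher, with a summed level of 4350 FPKM at D0 and 2177 at D7. FPKM is the number of fragments scaled by transcript length and by library size, a level that can be compared between genes. Markers of other cells were also detected. Macrophage markers were higher in 11 of 12 and their sum was 156 FPKM at D0 and 585 at D7. Schwann cell or glia markers were higher in 8 of 8, with sums of 8.26 and 24.1. Pericyte or smooth muscle markers were lower in 3 of 8 and higher in 2, with sums of 2491 and 378. Of the neuron markers, Tubb3 was at 101 and 18 FPKM and the others lay at or below 0.108 in both libraries, with Rbfox3 at 0. Of the skeletal muscle markers, Acta1 was at 45.4 and 1.73 FPKM, while Myod1, Myf5, Pax7 and Ckm were listed at 0 in both. Endothelial markers summed to 5.52 and 4.46, and of the 7 above 0 in both libraries, 2 (Tek and Kdr) were higher and 3 lower. Tie1, Cldn5 and Sox17 were listed at 0 in both libraries and Pecam1 was at 0.0152 and 0.0178. Others of the list were detected, with Egfl7 at 3.83 and 1.56 FPKM, Emcn at 0.581 and 0.3 and Cdh5 at 0.159 and 0.0288. Tek was at 0.52 and 1.62 FPKM and Kdr at 0.3 and 0.655. The part of these other cells in the values of the guidance genes was not tested.

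Of the 70 guidance genes, 62 were above 0 in both libraries. Among these 62, 18 were lower at D7 by at least 2-fold (29%), and 13.2% of all 14986 genes above 0 in both libraries passed the same rule. Another 11 were higher by at least 2-fold (17.7%), beside 18.5% of all genes, and 33 stayed within 2-fold. At this limit the share of guidance genes that were lower lay above that of all genes, and the share that were higher lay near it. At a 4-fold limit, 6 of the 62 guidance genes were higher and 3 lower, beside 8.08% and 3.86% of all genes. More of all genes, too, were higher than lower at that limit, so this balance is not read as a trait of the guidance genes. Their median log2 ratio of D7 to D0 was -0.45, and that of all genes was 0.02. Limited to genes with FPKM of at least 1 in a library, 17 of 53 guidance genes were lower and 9 were higher, beside 11.9% and 15.6% of all such genes. With 1 library per stage there was no replicate error and no test, so each difference is between these libraries and each interval covers counting error only. In bulk RNA, fewer cells of a type and less RNA per cell cannot be told apart. Dividing each library by its median after a floor of 0.01 shifted each log2 ratio by -0.35. Of 64 guidance genes, 27 were then lower and 11 higher, beside 21.7% and 13.4% of the 14986 genes above 0 in both libraries. The 64 include 2 genes listed at 0 at D0, which the floor lets in, so the sets are not quite alike.

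Receptors and ligands differed in their counts. Of 28 receptors above 0 in both libraries, 13 were lower (46.4%) and 4 higher (14.3%), beside 13.2% and 18.5% of all genes. Their median log2 ratio was -0.97, and their summed level was 383 FPKM at D0 and 251 at D7. Of 34 ligands, 5 were lower (14.7%) and 7 higher (20.6%), both near the shares of all genes. The ligands had a median of -0.01 and sums of 261 and 251. By family, the ephrin and Eph genes were lower in 9 of 18 (50%) and higher in 1 (5.56%). The semaphorin ligands were lower in 2 of 20 (10%) and higher in 6 (30%). The remaining families held fewer genes, as the plot of shares by group shows.

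**Figure D1:**
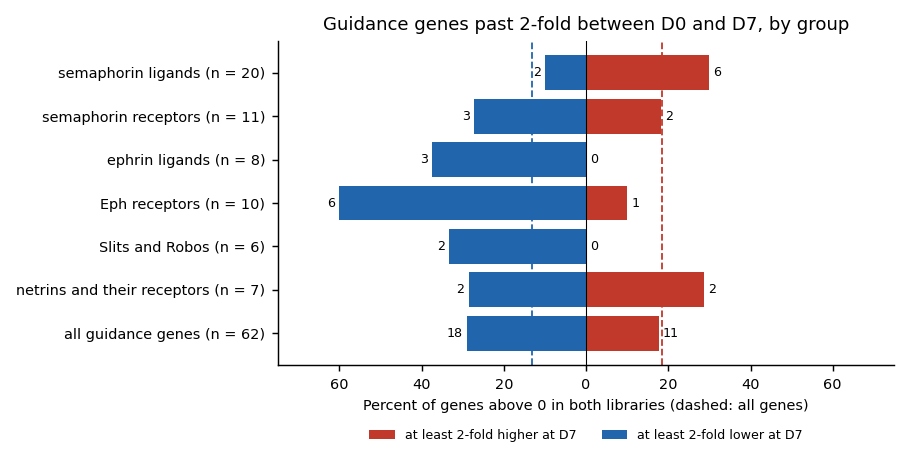
Bars give the percent of genes of each group (vertical axis, with n above 0 in both libraries) that were at least 2-fold higher (red, to the right) or lower (blue, to the left) at D7 than at D0, with the number of genes at each bar end; dashed lines mark 18.5% higher and 13.2% lower over all genes. Eph receptors reach farthest to the lower side (6 of 10) and semaphorin ligands farthest to the higher side (6 of 20).

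Among members with FPKM of at least 1 in a library, the ratio of D7 to D0 was highest for Sema4a and Sema3g and lowest for Epha2 and Epha1. Sema4a, a membrane semaphorin known from T cell and dendritic cell contacts, was at 0.162 FPKM at D0 and 6.4 at D7. These levels correspond to about 11 and 353 fragments, and the ratio was 39.4 with a 95% counting interval of 20.8 to 76.3. Sema3g, a secreted semaphorin that binds Nrp2, was at 0.12 and 2.73 FPKM, from about 11 and 218 fragments, a ratio of 22.9 (12.8 to 47.4). Both rested on few fragments in the D0 library, which sets the width of their intervals.

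At the other end, Epha2, a receptor of ephrin-A ligands common in epithelia and in growing cells, was at 5.97 FPKM at D0 and 0.803 at D7, with a ratio of 0.135 (0.1 to 0.179). Epha1 was at 7.12 and 0.974 FPKM, a ratio of 0.137 (0.102 to 0.181). They rested on about 478 and 473 fragments at D0 and 55 each at D7. The deposited locus of Epha1 also overlaps Zyx on the other strand, at 283 and 92.8 FPKM. The methods of the study describe breakdown of the second cDNA strand, which keeps strand information, but whether counting used it is not given in the sources used here. The part of Zyx reads in the value of Epha1 was not tested.

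The promoters of these 4 genes are shown because they stand at both ends of the range of ratios. Each is the 250 bases before a RefSeq start of the gene, in build GRCm38.p6. Sema4a lies at chr3:88455762-88456011 on the minus strand, inside the annotated gene, where 31 bases fall in an annotated exon of the gene. The deposited locus of Sema4a extends upstream of this window, to 88461182. Sema3g lies at chr14:31217623-31217872 on the plus strand, with its last 13 bases in the first exon of the GENCODE M21 gene. Epha2 lies at chr4:141300971-141301220 on the plus strand, and Epha1 at chr6:42373269-42373518 on the minus strand. Both lie outside annotated exons of their own gene, and exons of other genes were not checked. Capitals mark matches on either strand to 6 motifs, namely the GC box GGGCGG, the CACCC box CACCC, the nuclear receptor half-site AGGTCA, the AP-1 site TGANTCA, the C/EBP core TTGCNNAA and the TEAD site GGAATG.
Sema4a: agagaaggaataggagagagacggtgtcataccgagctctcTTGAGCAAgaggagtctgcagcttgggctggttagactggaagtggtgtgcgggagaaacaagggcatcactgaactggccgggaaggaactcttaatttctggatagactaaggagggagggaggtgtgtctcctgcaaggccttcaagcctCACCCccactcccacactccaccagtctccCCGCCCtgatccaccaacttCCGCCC
Sema3g: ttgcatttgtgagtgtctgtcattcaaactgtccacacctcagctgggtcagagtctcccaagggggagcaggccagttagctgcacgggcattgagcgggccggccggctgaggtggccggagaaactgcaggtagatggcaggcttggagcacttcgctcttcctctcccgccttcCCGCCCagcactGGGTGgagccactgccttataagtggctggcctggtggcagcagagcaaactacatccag
Epha2: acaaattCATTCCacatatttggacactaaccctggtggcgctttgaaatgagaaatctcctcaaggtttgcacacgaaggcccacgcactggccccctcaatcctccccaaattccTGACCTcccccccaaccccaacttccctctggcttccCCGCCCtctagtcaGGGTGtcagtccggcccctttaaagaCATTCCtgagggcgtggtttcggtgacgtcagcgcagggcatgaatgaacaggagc
Epha1: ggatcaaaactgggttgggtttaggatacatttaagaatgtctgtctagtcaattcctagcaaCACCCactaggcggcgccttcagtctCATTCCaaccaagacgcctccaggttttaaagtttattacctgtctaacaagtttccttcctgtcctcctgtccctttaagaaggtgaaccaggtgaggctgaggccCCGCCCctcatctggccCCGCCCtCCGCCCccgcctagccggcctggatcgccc

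All 4 windows held the GC box and the CACCC box, which occur in 32.7% and 52% of all 32851 RefSeq start windows of the same length. Both were common over the guidance genes, the GC box in 17 of 18 genes within 2-fold, 8 of 12 lower and 6 of 7 higher, and the CACCC box in 13, 10 and 6 of them. Only Sema4a of these 4 held the C/EBP core (9.56% of all windows), and only Epha2 held the nuclear receptor half-site (14% of all windows). The TEAD site was found in Epha2 and Epha1 and in neither Sema4a nor Sema3g. Of the 40 guidance genes matched to a RefSeq start within 100 bases of their own, the TEAD site was found in 4 of 12 lower genes, 2 of 18 within 2-fold and 0 of 7 higher genes, beside 12.6% of all windows. The AP-1 site was found in 0 of 12 lower genes and 1 of 7 higher genes, beside 6.75%. The median GC content was 64.8% in lower, 60.4% in higher and 69% in the genes within 2-fold, and 52.4% in all windows. These matches describe letters in a window and were not tested as binding sites.

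**Figure D2:**
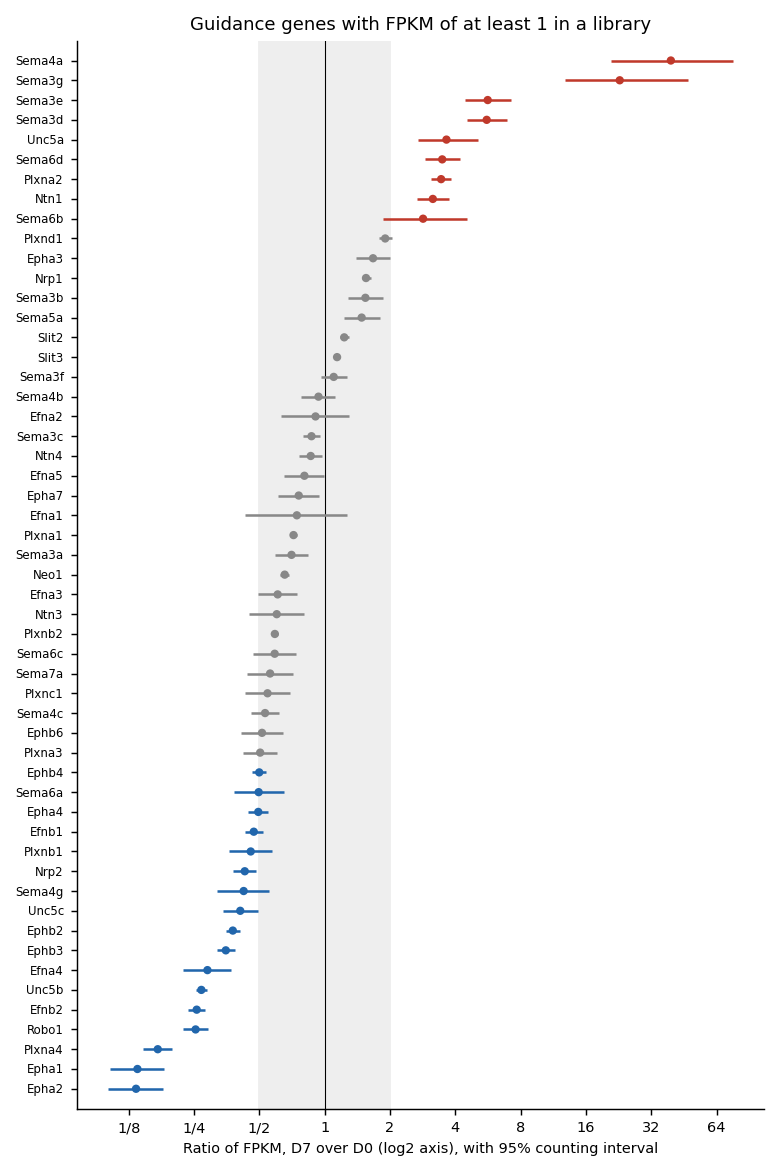
Points give the ratio of FPKM at D7 to that at D0 (horizontal axis, log2 scale) for the 53 guidance genes with FPKM of at least 1 in a library, lines the 95% counting interval, and the shaded band the range within 2-fold. The 9 higher genes (red) run from Sema6b at 2.84 to Sema4a at 39.4, and the 17 lower genes (blue) from Ephb4 at 0.499 to Epha2 at 0.135.

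Class 3 semaphorins, the secreted class, were higher in 3 of 7 genes (42.9%) and lower in 0, beside 18.5% and 13.2% of all genes. Sema3d, which guides axons and endothelial cells, was at 0.83 FPKM at D0 and 4.63 at D7, with a ratio of 5.58 (4.54 to 6.94). Sema3e, which binds Plxnd1 without a neuropilin, was at 0.578 and 3.26 FPKM, a ratio of 5.64 (4.44 to 7.23). With Sema3g, these genes were below 1 FPKM at D0 and between 2.73 and 4.63 at D7. The genes that were already above 1 FPKM at D0 moved less. Sema3c, the most abundant of the class in both libraries, was at 9.59 and 8.33 FPKM, a ratio of 0.869 (0.792 to 0.952). Sema3a, the classic repellent of sensory axons, was at 2.75 and 1.93 FPKM, a ratio of 0.703 (0.589 to 0.841). Sema3b was at 3.16 and 4.85, a ratio of 1.54 (1.28 to 1.86). The interval of Sema3f, a ligand of Nrp2 at 5.94 and 6.56 FPKM, included 1 (0.959 to 1.27). Summed over the class, the level was 23 FPKM at D0 and 32.3 at D7.

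In mm10, 4 of these genes lie along chromosome 5 in the order Sema3d, Sema3a, Sema3e and Sema3c, between the start of Sema3d at 12383385 and the end of Sema3c at 17730268. Their ratios alternated along this stretch. Sema3d and Sema3e were over 5-fold higher at D7, whereas Sema3a and Sema3c were lower within 2-fold. On chromosome 9, Sema3b (chr9:107597674-107609229) and Sema3f (chr9:107681500-107710475) were both within 2-fold.

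Among the membrane semaphorins of classes 4 to 7, 3 of 13 were higher (23.1%) and 2 were lower (15.4%), near the 18.5% and 13.2% of all genes, with sums of 24.2 and 26.8 FPKM. Besides Sema4a, Sema6d was higher, at 1.21 FPKM at D0 and 4.21 at D7, with a ratio of 3.48 (2.9 to 4.2). Sema6b was at 0.471 and 1.34 FPKM, a ratio of 2.84 (1.85 to 4.54). Both are class 6 genes, whose transmembrane products bind class A plexins. The lower genes were Sema4g, at 2.26 and 0.956 FPKM with a ratio of 0.423 (0.32 to 0.551), and Sema6a, at 1.33 and 0.661 with a ratio of 0.496 (0.38 to 0.65). Class 6 was therefore not uniform, with Sema6c at 2.78 and 1.64 FPKM and a ratio of 0.588 (0.466 to 0.739). Sema4c, a ligand of Plxnb2 and the most abundant of these classes at D0, was at 7.56 and 4.02 FPKM, a ratio of 0.531 (0.458 to 0.616). At D7 Sema4a was the most abundant of them. Sema7a, which has a lipid anchor and binds Plxnc1 and integrins, was at 3.16 and 1.77 FPKM, a ratio of 0.56 (0.44 to 0.717). Sema5a, whose product carries thrombospondin repeats, was at 0.876 and 1.3 FPKM, a ratio of 1.48 (1.23 to 1.79). Sema4b, at 3.45 and 3.23 FPKM, had an interval that included 1 (0.781 to 1.12). Sema4d, the ligand of Plxnb1, Sema4f and Sema5b stayed below 1 FPKM in both libraries and within 2-fold.

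**Figure D3:**
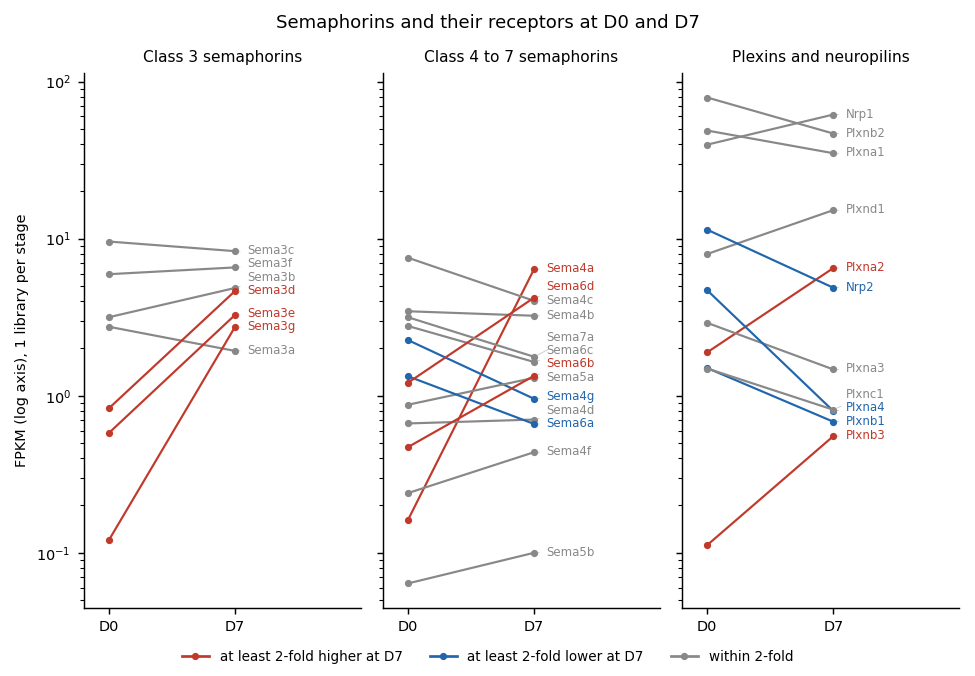
Lines join the FPKM (vertical axis, log scale) of each semaphorin, plexin and neuropilin gene in the D0 and D7 libraries, red where at least 2-fold higher at D7, blue where at least 2-fold lower and grey within 2-fold. Sema4a crosses from 0.162 to 6.4 FPKM and Sema3g from 0.12 to 2.73, while Plxnb2, Plxna1 and Nrp1 are the 3 highest genes of the right panel at both stages.

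The plexins, the signalling receptors of semaphorins, summed to 149 FPKM at D0 and 108 at D7, beside 47.2 and 59.1 for all semaphorin ligands, and most of this came from Plxnb2 and Plxna1. Plxnb2 was at 79.2 and 46.7 FPKM, a ratio of 0.589 (0.57 to 0.609). Plxna1, a partner of neuropilins in class 3 signalling, was at 48.8 and 35, a ratio of 0.718 (0.695 to 0.742). These abundant plexins were lower at D7 but within 2-fold. The lowest ratio of the family was that of Plxna4, which carries Sema3a and class 6 signals, at 4.69 and 0.799 FPKM with a ratio of 0.17 (0.145 to 0.198). Plxna2, a receptor of class 6 semaphorins, went the other way, at 1.89 and 6.5 FPKM with a ratio of 3.44 (3.09 to 3.84). Between Plxna4 and Plxna2, Plxna4 was thus the higher at D0 and Plxna2 at D7, both below the class A plexin Plxna1 at each stage. Plxnd1, the receptor of Sema3e, was at 7.99 and 15.2 FPKM, a ratio of 1.9 (1.77 to 2.05), just inside the 2-fold limit. Its ligand Sema3e was called higher, as given before. Plxnb1, the receptor of Sema4d, was lower, at 1.5 and 0.683 FPKM with a ratio of 0.456 (0.361 to 0.573). Plxnb3 was higher at a low level, at 0.112 and 0.553 FPKM with a ratio of 4.96 (2.73 to 9.61). Plxna3 at 2.91 and 1.47 FPKM, with a ratio of 0.504 (0.421 to 0.602), and Plxnc1 at 1.49 and 0.814, with a ratio of 0.545 (0.43 to 0.691), lay outside the limit for a lower call.

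The neuropilins differed from each other. Nrp1, a co-receptor of Sema3a and of VEGF-A, was at 39.7 FPKM at D0 and 61.7 at D7, with a ratio of 1.55 (1.48 to 1.63). Nrp2, the co-receptor of Sema3f and Sema3g, was at 11.4 and 4.87 FPKM, a ratio of 0.428 (0.379 to 0.484). Nrp1 held 77.7% of the neuropilin FPKM at D0 and 92.7% at D7.

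Of the 22 ephrin and Eph genes, 18 were above 0 in both libraries, and 15 of these had a ratio below 1. The counting interval lay below 1 in 13 and above 1 in 2. The share of all genes with a ratio below 1 was not counted, but the median log2 ratio was -0.98 here and 0.02 over all genes. The summed level of the 22 genes was 162 FPKM at D0 and 67.2 at D7, with a ratio of 0.415. The B side carried most of it. Efnb2, the transmembrane ephrin that marks arterial endothelium, was at 26.6 and 6.84 FPKM, a ratio of 0.257 (0.235 to 0.282). Efnb1 was at 22.4 and 10.6 FPKM, a ratio of 0.471 (0.428 to 0.519). Efnb3 was at 0.092 and 0.144 FPKM, about 6 and 8 fragments, with an interval that included 1. Both abundant B ephrins were thus lower, and the most abundant one was Efnb2 at D0 and Efnb1 at D7.

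The EphB receptors that bind these ligands were lower in 3 of 4 genes (75%), beside 13.2% of all genes. Ephb4, the main receptor of Efnb2, was at 25.4 FPKM at D0 and 12.7 at D7, with a ratio of 0.499 (0.462 to 0.539). Ephb3 was at 22.5 and 7.87 FPKM, a ratio of 0.35 (0.318 to 0.384). Ephb2 was at 13.5 and 5.07 FPKM, a ratio of 0.377 (0.35 to 0.405). Ephb4 stood at the limit of the call, and its interval reached across it. Ephb6, which has no kinase activity, was at 3.51 and 1.81 FPKM, a ratio of 0.514 (0.411 to 0.641). Ephb1 was listed at 0 at D0 and at 0.0125 FPKM at D7, about 1 fragment. Sums of the EphB receptors were 64.9 and 27.4 FPKM.

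Ephrin-A ligands summed to 22.6 FPKM at D0 and 11.5 at D7. By at least 2-fold, 1 of 5 was lower (20%), beside 13.2% of all genes. This was Efna4, at 10.9 and 3.14 FPKM with a ratio of 0.288 (0.223 to 0.369). Efna3 was at 5.97 and 3.62 FPKM, a ratio of 0.607 (0.492 to 0.743). Efna5 was at 2.62 and 2.11 FPKM, a ratio of 0.806 (0.647 to 0.993). Intervals of Efna1, at 1.36 and 1.01 FPKM (0.427 to 1.27), and Efna2, at 1.77 and 1.6 FPKM (0.63 to 1.3), included 1. The deposited locus of Efna2 spans 45 other coding genes, and whether their reads enter its value was not tested. Efna1, Efna3 and Efna4 lie on the minus strand of chromosome 3 between 89271733 and 89338028, and their ratios of 0.744, 0.607 and 0.288 were all below 1.

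Among the EphA receptors, Epha4 was lower along with Epha2 and Epha1. Epha4, which binds ephrins of both subclasses, was at 8.98 FPKM at D0 and 4.44 at D7, with a ratio of 0.494 (0.444 to 0.549). Epha3 had a ratio above 1, at 1.8 and 3.01 FPKM with a ratio of 1.67 (1.4 to 2.01). Epha7 was at 1.54 and 1.17 FPKM, a ratio of 0.759 (0.609 to 0.943). Epha4 was the most abundant EphA receptor at both stages, and at D7 Epha3 came next. The single higher Eph receptor was Epha5, at 0.0245 and 0.31 FPKM from about 4 and 40 fragments, a ratio of 12.6 (4.25 to 45.3). Epha6, Epha8 and Epha10 were listed at 0 in both libraries.

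**Figure D4:**
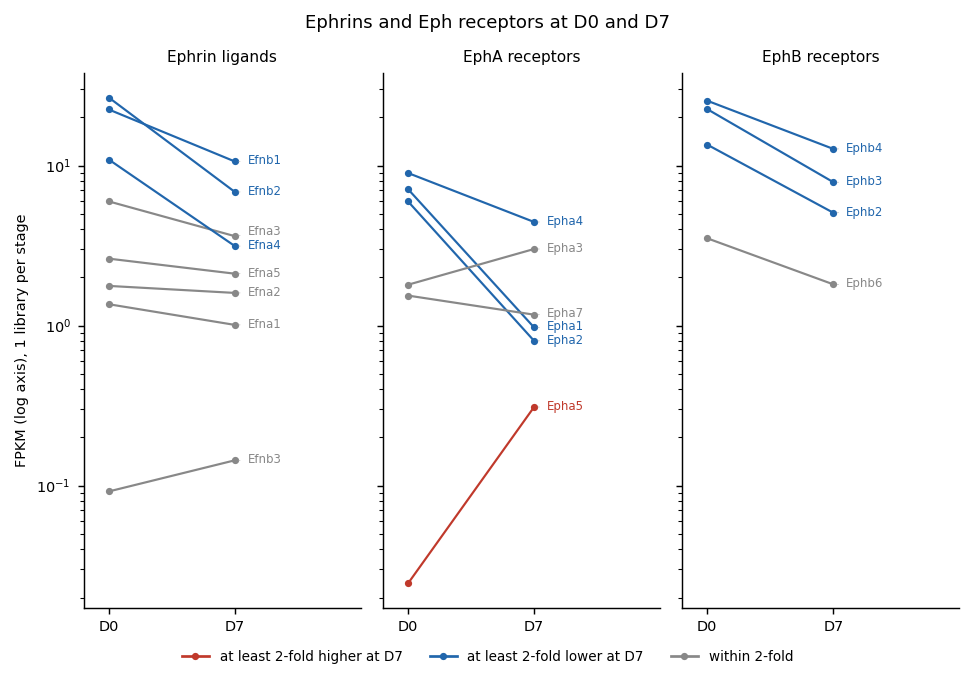
Lines join the FPKM (vertical axis, log scale) of each ephrin and Eph gene above 0 in both libraries at D0 and D7, coloured as lower (blue), higher (red) or within 2-fold (grey). The 3 highest genes at D0 in each panel are blue, such as Efnb2 from 26.6 to 6.84 FPKM and Ephb3 from 22.5 to 7.87, and Epha5, from 0.0245 to 0.31, is the only red line.

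Slit3 (chr11:35121224-35708507, plus strand) had the highest level of the 70 genes in both libraries, at 115 FPKM at D0 and 130 at D7. This came from about 12420 and 12020 fragments, and the ratio was 1.14 (1.11 to 1.17). Slit2 was at 15.3 and 18.8 FPKM, a ratio of 1.23 (1.17 to 1.29). Slit1 was at 0.405 and 0.455 FPKM, with an interval that included 1 (0.708 to 1.77). The ratios of Slit2 and Slit3 were above 1 as deposited and fell below 1, to log2 values of -0.06 and -0.17, after the floor and the division by the library median, so no direction is given for the Slits. Slit3 made up 43.9% of the summed ligand FPKM at D0 and 51.9% at D7.

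Robo1, the main Slit receptor in these libraries, was lower at D7. It was at 7.82 FPKM at D0 and 1.99 at D7, with a ratio of 0.254 (0.222 to 0.291). Robo2, which lies beyond Robo1 on chromosome 16, was at 0.592 and 0.404 FPKM, a ratio of 0.682 (0.49 to 0.94). Robo3 was at 0.0615 and 0.0241 FPKM, about 6 and 2 fragments, and its ratio of 0.392 had an interval from 0.0387 to 2.19. Its lower call therefore rested on too few fragments to be read. Robo4, the endothelial Robo, was listed at 0 in both libraries. Summed Robo FPKM was 8.47 and 2.41, while the Slits summed to 130 and 150.

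Among the netrins, Ntn1, the best known member, was higher, at 1.67 FPKM at D0 and 5.25 at D7 with a ratio of 3.15 (2.67 to 3.73). Ntn4, a netrin of basement membranes and the most abundant of the family, was at 8.72 and 7.52 FPKM, a ratio of 0.862 (0.763 to 0.971). Ntn3 was at 1.37 and 0.824 FPKM, a ratio of 0.601 (0.447 to 0.801). The deposited locus of Ntn3 also holds Tbc1d24 on the same strand, at 4.34 and 3.48 FPKM. Ntn5 was listed at 0 in both libraries.

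Netrin receptors were led by Unc5b (chr10:60762593-60831581, minus strand), a receptor also studied in vessels, at D0 and by Neo1 at D7. Unc5b was at 52.7 and 14.3 FPKM, a ratio of 0.27 (0.255 to 0.286). Neo1, which binds netrins and repulsive guidance molecules, was at 28.8 and 18.9 FPKM, a ratio of 0.654 (0.623 to 0.688). Unc5b was the third most abundant guidance gene at D0 and stood eighth at D7. Unc5c was at 2.12 and 0.865 FPKM, a ratio of 0.408 (0.338 to 0.494). Unc5a was higher, at 0.663 and 2.41 FPKM with a ratio of 3.64 (2.68 to 5.07). Its deposited locus overlaps Hk3 on the other strand, at 0.392 and 1.28 FPKM with a ratio of 3.27. Dcc, the attractive netrin receptor, was listed at 0 at D0 and at 0.0216 FPKM at D7, about 4 fragments, while 3 fragments at D0 would be 0.0138 FPKM. Unc5d was listed at 0 in both libraries. Ntn1 was thus higher at D7 while the sum of the Unc5 receptors was 55.5 FPKM at D0 and 17.5 at D7.

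**Figure D5:**
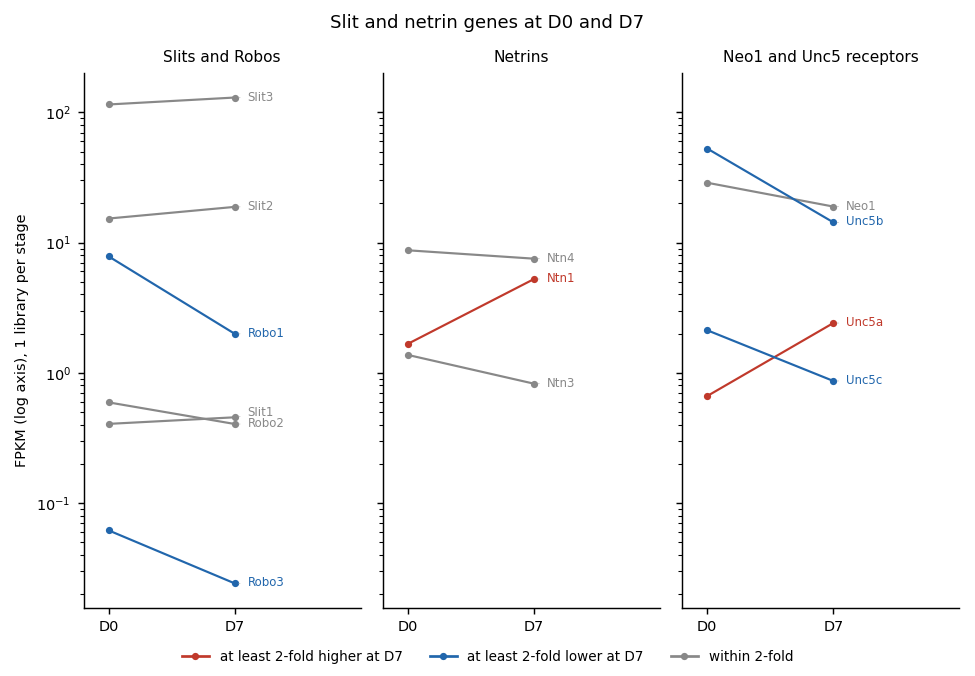
Lines join the FPKM (vertical axis, log scale) of Slit, Robo, netrin, Neo1 and Unc5 genes above 0 in both libraries at D0 and D7, coloured as lower (blue), higher (red) or within 2-fold (grey). Slit3 stays on top at 115 and 130 FPKM while Robo1 goes from 7.82 to 1.99 and Unc5b from 52.7 to 14.3.

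For the 6 genes listed at 0 in both libraries, 3 fragments would correspond to between 0.0155 and 0.1 FPKM at D0. At D7 they would correspond to between 0.0182 and 0.118 FPKM, so lower levels could have been missed. Near the 2-fold limit, Ephb4 at 0.499, Sema6a at 0.496 and Epha4 at 0.494 were just called lower. Plxna3 at 0.504, Ephb6 at 0.514 and Sema4c at 0.531 were just within 2-fold. On the higher side, Plxnd1 at 1.9 and Sema4f at 1.82 also stayed within 2-fold. The counting interval excluded 1 in 53 of the 62 genes, above 1 in 19 and below 1 in 34. This count was not made over all genes, so it is not read as a trait of the guidance genes.

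Other genes tied to guidance signalling were counted in 3 lists. These hold transducers inside the cell and also surface or secreted proteins, such as L1cam, Met, Adam10, Gpc1, Sdc3 and Rgma. The shares below are therefore not shares of transducers inside the cell alone. Of 20 genes of semaphorin signalling above 0 in both libraries, 7 were lower (35%) and 3 higher (15%), beside 13.2% and 18.5% of all genes, with a median log2 ratio of -0.59. The lower genes included Dpysl3, a collapsin response mediator that binds the cytoskeleton, at 55.7 FPKM at D0 and 6.46 at D7, with a ratio of 0.116 (0.1 to 0.134). They also included Mical2, an actin-oxidizing enzyme of the family that acts downstream of plexins, at 42 and 11.3 FPKM, a ratio of 0.27 (0.248 to 0.294). Met, a receptor kinase that pairs with B plexins, was higher, at 2.91 and 9.02 FPKM with a ratio of 3.1 (2.76 to 3.47).

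Of 17 genes of Eph signalling, 2 were lower (11.8%) and 1 was higher (5.88%), with a median log2 ratio of 0.00. The share that were lower was near the 13.2% of all genes and the median near that of all genes, whereas the ephrins and Eph receptors themselves had a median of -0.98. Tiam1, a Rac exchange factor, was lower at 6.82 and 2.48 FPKM, a ratio of 0.363 (0.32 to 0.412). Pdzrn3, a ubiquitin ligase gene, was lower at 49.4 and 17.5 FPKM, a ratio of 0.354 (0.332 to 0.377). Adam10, the protease that cleaves ephrins, was at 34.2 and 29.3 FPKM, a ratio of 0.857 (0.812 to 0.904).

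Of 32 genes of Slit, Robo and netrin signalling, 8 were lower (25%) and 4 higher (12.5%), beside the same 13.2% and 18.5%, with a median log2 ratio of -0.35. The higher call of Dscaml1 rested on about 1 and 2 fragments (0.122 to 139). The lower call of Ntng1 rested on about 11 and 3 (0.0575 to 1.21). With FPKM of at least 1 in a library, 6 of 27 were lower and 3 higher, beside 11.9% and 15.6% of all such genes. Enah and Vasp, which bind actin filament ends downstream of Robo and netrin receptors, were both lower. Enah was at 32.4 FPKM at D0 and 9.97 at D7, with a ratio of 0.308 (0.278 to 0.34). Vasp was at 87.5 and 33.7 FPKM, a ratio of 0.385 (0.361 to 0.411). The heparan sulfate proteoglycan gene Sdc3 was at 91.3 and 25.7 FPKM, a ratio of 0.282 (0.269 to 0.295). Rgma, a ligand of Neo1, was higher at 5.85 and 15 FPKM, a ratio of 2.56 (2.28 to 2.88).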

How the data were processed

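RNA-Seq of 2 libraries, 1 per stage, was used. The authors removed adaptor, low-quality, duplicate and rRNA reads, aligned the rest to mm10 and deposited an FPKM for each gene in each library. SOAP2 is named in the paper, and Bowtie2 in the submitters' processing notes. Of 27324 genes in the table, 23361 had values, and 0 value columns were unmatched.

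The ratio of D7 to D0 was taken over genes above 0 in both libraries, with 2.0 and 0.5 as limits. No p-value was computed. Fragments were recovered from the whole steps of low FPKM values in 602 single-exon genes, which gave denominators of 21471371 (D0) and 18265534 (D7) fragments. Other genes used the annotated length of the named transcript, or of the longest coding one in 3 members, so these numbers of fragments are estimates. The 95% intervals (Clopper-Pearson, exact) cover counting error only, since each stage had 1 library. Fragments carried no molecular identifiers. Full values are given for members with FPKM of at least 1 in a library, and others are named to complete a family. The symbol rule for the members, the lists and the motifs were set with earlier results of these data known.

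Alternatives were pseudocounts of 0.1 and 1, filters at FPKM of 0.1 and 1, TPM, 3 rescalings, a 4-fold limit, summed symbols and a minimum of 20 fragments. Scripts were tested on simulated data. Promoters came from RefSeq. The software was matplotlib 3.10.9, scipy 1.17.1, pandas 2.3.3 and numpy 2.4.6 under Python 3.11.15.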

Additional observations from a re-analysis of the deposited data

How the results depend on the processing

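The deposited values gave 11 guidance genes higher at D7, 18 lower and a median log2 ratio of -0.45. A pseudocount of 1 left 8 higher and 11 lower with a median of -0.20, since it shrinks the ratios of low genes. With FPKM of at least 1 in a library the median was -0.61. Asking for FPKM of 1 or more at both stages left 3 higher and 10 lower, since genes low at one stage drop out. Setting a floor of 0.01 and then dividing by library medians gave a median of -0.76 with 11 higher and 27 lower. A 4-fold limit left 6 higher and 3 lower, so the share of calls that were lower went from 62.1% to 33.3%. At that limit more of all genes, too, were higher (8.08%) than lower (3.86%). TPM, median centring and the upper quartile left 11 higher and 19 to 20 lower. A minimum of 20 fragments, chosen after seeing the data, removed only Robo3 from the calls and left 17 lower. Only 6 alternatives can change the ratio of a single gene (pseudocounts and rescalings, of which the rescalings shift all genes alike). Of their 318 values over 53 genes, 66 lay outside the counting interval of the deposited ratio, 41 of them after the floor and division and 22 with a pseudocount, and no called gene changed direction. No paired analysis was possible because each stage has 1 library. Depth limits the genes below about 20 fragments at a stage, which include Sema4a, Sema3g and Epha5 at D0, and the spread between cultures is unknown.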
